A study of Rattus norvegicus with 82 samples.

Results

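Left ventricular (LV) cardiomyocytes of failing rat hearts were compared between animals whose LV had itself been overloaded and animals whose LV was remote from the overload. Ascending aortic banding (AOB) loads the LV, and pulmonary artery banding (PAB) loads the right ventricle (RV), so that the LV is remote from the load in right heart failure. The 2 groups were chosen by their titles, AOB-F with 7 LV libraries and PAB-F with 6, which makes 13 of the 82 libraries of the series, and no measured value entered that choice. All animals were F1 offspring of female Wistar Kyoto and male Lewis rats, each library came from 1 animal, and the letter F marks the decompensated stage, while H marks the compensated stage of hypertrophy. By the labels, AOB-F animals (4 males, 3 females) were 31 weeks old and 26 weeks past surgery, and PAB-F animals (4 males, 2 females) 28 weeks old and 22 weeks past surgery. The study's methods give the same times after surgery and other ages, and the ages here are those of the labels. The kind of banding, the age and the time after surgery therefore cannot be told apart in this comparison. Sham-F (9 LV libraries, 4 males, 5 females) was labelled 31 weeks and 26 weeks past a sham operation. The compensated groups AOB-H (2 males, 4 females) and PAB-H (4 males, 2 females) held 6 LV libraries each. Both were labelled 11 weeks and 7 weeks past surgery, as was their sham group Sham-H (7 LV libraries, 3 males, 4 females).

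Pressure overload raises wall stress. The cardiomyocyte answers with growth, with a return of fetal genes such as those of the natriuretic peptides, with stretch-responsive proteins along the titin filament and, in failure, with a loss of ion channel and metabolic gene expression. In right heart failure after pulmonary artery banding, the LV carries no added pressure load on its own wall. Cardiomyocytes were obtained by collagenase perfusion and sedimentation at low speed, so the pellets were enriched for cardiomyocytes and could still hold other cardiac cells. In such bulk RNA, more cells of a type and more RNA per cell cannot be told apart.

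The LV libraries held 11789283 to 18282203 counts in AOB-F (median 12759936) and 10121379 to 18108115 in PAB-F (median 14749294). All levels below are normalized counts, that is, counts scaled by edgeR's TMM factors to a common library size, and they compare libraries within a gene, not genes with each other. Fold changes are log2 AOB-F over PAB-F with their standard error (SE), and genes were called at an adjusted p under 0.05 in edgeR's quasi-likelihood test with Benjamini-Hochberg adjustment. The Y-linked gene Eif2s3y, at 160 or more in males and 0 in females, matched the sex label in 13 of 13 libraries.

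The AOB-F libraries of replicates 6 and 7 stood apart from the other 5. They were the 2 highest of all 13 libraries in 148 of the 211 genes called higher in AOB-F (70.1%), against 10.9% of all genes tested. Myh6, the gene of the fast cardiac myosin heavy chain, took 0.464% and 0.641% of all counts in these libraries and 1.29% to 4.75% in the other 11. Both animals were female, and the third AOB-F female, replicate 5, did not share this pattern. Of the AOB-F libraries, replicate 5 had the lowest Ankrd23 (1089) and Nppa (4825) and the highest Myh6 share (3.76%). The RV libraries of animals 6 and 7 showed part of the pattern, being the 2 highest of 13 RV libraries in 79 of the 211 genes (37.4%, against 6.61% of all genes tested). Results are therefore given with and without these 2 animals, which were singled out after their values had been seen.

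Of 11954 genes tested, 260 were called (2.18%), 211 of them higher in AOB-F (1.77%) and 49 lower (0.41%). Without libraries 6 and 7, edgeR called 0 genes, with 1470 at an unadjusted p under 0.05 and a smallest adjusted p of 0.0521, and DESeq2 called 59, of which 30 were higher. The genes called higher and those called lower behaved differently when these libraries were left out. The median log2 fold change of the higher genes went from 0.67 to 0.33, and 107 of the 211 kept an unadjusted p under 0.05. The median of the lower genes went from -0.91 to -0.81, and 49 of 49 kept an unadjusted p under 0.05. Direction was kept in 247 of the 257 called genes that were tested both times. Under criteria adapted from the study's, which it set for banded against sham groups with DESeq2 (here absolute log2 fold change over 1, unadjusted p at most 0.01 and mean over 50 in the higher group, in edgeR), 105 genes passed (0.878%), 90 of them higher in AOB-F, and 39 passed without libraries 6 and 7. The test over 82 libraries borrowed its estimate of spread from all 12 groups and took LV and RV libraries of the same animal as independent. A fit to the 41 LV libraries, 1 per animal, called 10 genes. A fit to the 13 libraries alone called 0 genes by edgeR, with 891 at an unadjusted p under 0.05. Leaving out 1 library at a time gave 11 calls without AOB-F 7, 63 without AOB-F 6, 69 without PAB-F 6 and 127 without PAB-F 1, and 509 without AOB-F 5, 535 without PAB-F 5 and 601 without AOB-F 3.

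**Figure D1:**
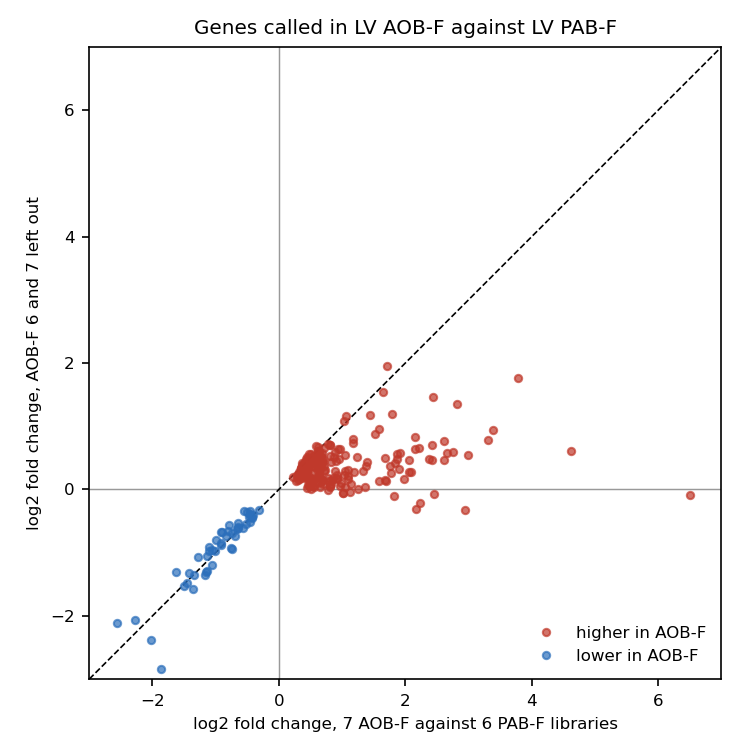
Log2 fold change of AOB-F over PAB-F for the called genes, with all 7 AOB-F libraries on the x axis and with libraries 6 and 7 left out on the y axis; each point is a gene and the dashed line marks equal values. Genes lower in AOB-F lie near the line (median -0.91 and -0.81), whereas many genes higher in AOB-F fall well below it (median 0.67 and 0.33).

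In all 12 genes named for the largest positive fold change the 2 highest libraries were AOB-F 6 and 7. Reg3b encodes a secreted lectin of the regenerating protein family, which is made by stressed epithelia and heart muscle. It lay at 9126 and 12440 in libraries 6 and 7, at no more than 58.5 in the other AOB-F libraries, and at 16.5 to 53.3 (median 32.1) in PAB-F. Its log2 fold change was 6.50 ± 1.26 (adjusted p = 0.00301), and -0.09 without these libraries. Lcn2, which codes for the siderophore-binding acute phase protein lipocalin, ranged from 92.3 to 3585 (median 303) in AOB-F and from 59.1 to 244 (median 186) in PAB-F. The fold change of 2.61 ± 0.60 (adjusted p = 0.00992) became 0.46 without libraries 6 and 7. Hamp, the gene of the iron hormone hepcidin, stood at 315 and 314 in these libraries and at no more than 41.5 in the rest of AOB-F, against 12.2 to 33.4 (median 18.2) in PAB-F, with a fold change of 2.42 ± 0.53 (adjusted p = 0.00723) that fell to 0.47.

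For these 3 secreted acute phase proteins, the 250 bases before the annotated start are shown because the genes moved together in the same libraries. Capitals mark matches, on either strand, to TTCNNNGAA (the letters bound by STAT factors), TGANTCA (AP-1) and TTGCNNAA (C/EBP). Sequences and coordinates are from RefSeq on GRCr8, not on the Rnor6.0 build of the counts.
Reg3b, chr4:112419526-112419775, plus strand: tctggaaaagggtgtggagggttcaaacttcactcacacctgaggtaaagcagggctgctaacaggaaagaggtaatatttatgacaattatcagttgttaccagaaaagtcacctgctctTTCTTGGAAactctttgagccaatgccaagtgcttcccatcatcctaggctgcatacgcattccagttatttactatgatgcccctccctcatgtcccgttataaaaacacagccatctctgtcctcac
Lcn2, chr3:36081781-36082030, minus strand: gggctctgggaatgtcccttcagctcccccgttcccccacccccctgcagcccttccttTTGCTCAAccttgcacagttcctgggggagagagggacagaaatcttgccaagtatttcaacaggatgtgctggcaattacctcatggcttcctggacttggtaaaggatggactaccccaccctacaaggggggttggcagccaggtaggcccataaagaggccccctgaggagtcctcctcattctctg
Hamp, chr1:95300272-95300521, minus strand: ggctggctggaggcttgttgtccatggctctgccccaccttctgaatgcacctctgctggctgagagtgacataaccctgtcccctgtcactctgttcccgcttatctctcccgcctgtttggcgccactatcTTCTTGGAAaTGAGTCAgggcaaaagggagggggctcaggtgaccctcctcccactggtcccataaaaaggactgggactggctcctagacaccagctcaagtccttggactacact
The same 9 letters, TTCTTGGAA, occurred 129 to 121 bases before the start of Reg3b and 117 to 109 bases before that of Hamp. Over all 33469 promoters in the table, 7.67% held TTCNNNGAA, 6.34% TGANTCA and 9.22% TTGCNNAA in this window. Of the 12 genes named for the largest rise, 10 were in the table, and each motif occurred in 2 of them. No match overlapped another, and a match is a description of letters, not a bound site.

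Chemokines and adhesion molecules of leukocyte entry followed. Ccl20 lay at 442 and 488 in libraries 6 and 7 and at no more than 6.16 in the other AOB-F libraries, and at 0.869 to 7.11 (median 3.23) in PAB-F, with a fold change of 5.25 ± 0.94 (adjusted p = 0.00126). Without libraries 6 and 7 it was too low to be tested. The chemokine gene Ccl27 reached 146 and 220 there and otherwise no more than 22.7, against 5.57 to 13.9 (median 9.34) in PAB-F (2.66 ± 0.51, adjusted p = 0.00286). Selp, the gene of P-selectin, which tethers leukocytes to the vessel wall, ranged from 12.4 to 509 (median 26.2) in AOB-F and from 9.71 to 20.1 (median 14.3) in PAB-F. Its fold change was 3.32 ± 0.61 (adjusted p = 0.00199) and 0.78 without libraries 6 and 7. The integrin genes Itgam and Itgb2, which together form a receptor of myeloid cells, gave 2.21 ± 0.56 (adjusted p = 0.0202) and 2.15 ± 0.60 (adjusted p = 0.0367), and 0.65 and 0.63 without these libraries. Hk3, the hexokinase of white blood cells, gave 3.38 ± 0.82 (adjusted p = 0.0139) and 0.94.

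The matricellular protein gene Tnc ranged from 26.2 to 1082 (median 64.3) in AOB-F and from 8.69 to 42.1 (median 22.8) in PAB-F, with a fold change of 3.78 ± 0.71 (adjusted p = 0.00229) and 1.77 without libraries 6 and 7. Spp1, coding for osteopontin, lay at 883 and 5034 in these libraries and at 150 or less in the others, against 13.9 to 55.7 (median 37.8) in PAB-F (4.63 ± 1.12, adjusted p = 0.0139), and the fold change without them was 0.60. Gpnmb, a transmembrane glycoprotein gene of phagocytes and injured tissue, kept 1.34 of its fold change of 2.82 ± 0.61 (adjusted p = 0.00723), since another AOB-F library reached 1104 while PAB-F ended at 244. Paqr8, a membrane progestin receptor gene, went from 2.76 ± 0.54 (adjusted p = 0.00301) to 0.59. Asns, which encodes asparagine synthetase and is switched on by amino acid shortage, stood at 312 and 247 in libraries 6 and 7 and between 10.7 and 22.3 in the others, where PAB-F spanned 11 to 23.6. Plin2, coding for the coat protein of lipid droplets, stood at 4738 and 8142 there and at 702 to 1060 in the others, against 597 to 1133 in PAB-F (1.67 ± 0.30, adjusted p = 0.00126).

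**Figure D2:**
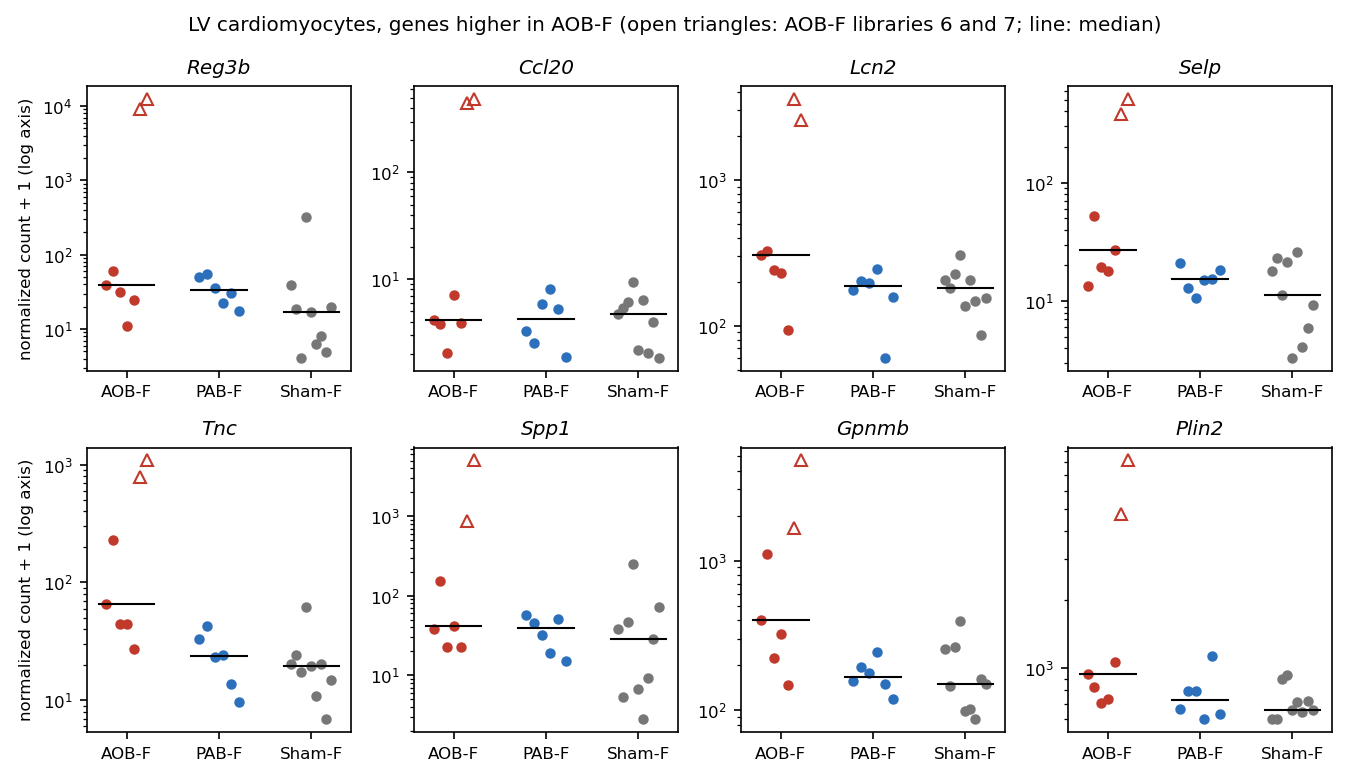
Normalized counts plus 1 (log axis) of 8 genes higher in AOB-F, in every LV library of AOB-F, PAB-F and Sham-F; each point is a library, open triangles are AOB-F 6 and 7, and the line is the group median. In each panel the triangles lie above all other libraries, as for Reg3b with 9126 and 12440 against at most 323 in any Sham-F library, while the remaining AOB-F points overlap PAB-F in all panels.

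The RV libraries of animals 6 and 7 carried the same transcripts at lower levels. Reg3b lay at 2522 and 3354 in them and at no more than 66.9 in the other 5 RV libraries of AOB-F. Lcn2 stood at 1798 and 1067 against at most 57.3, and Spp1 at 942 and 2302 against at most 115. For these 3 genes the high values were present in both ventricles of these animals.

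A second set of higher genes was carried by most AOB-F libraries. Msn, the gene of moesin, which ties actin to the plasma membrane, had the smallest adjusted p of all (3.63e-04). It ranged from 1384 to 5306 (median 2436) in AOB-F and from 998 to 1517 (median 1298) in PAB-F, with a fold change of 1.17 ± 0.19, and 0.80 without libraries 6 and 7. Daam1, a formin gene of actin assembly, lay at 790 to 1341 (median 995) in AOB-F and at 480 to 743 (median 545) in PAB-F (0.81 ± 0.20, adjusted p = 0.0154). The endocytic adaptor gene Dab2 lay at 466 to 900 (median 541) against 351 to 442 (median 412), a fold change of 0.63 ± 0.18 (adjusted p = 0.0473). For Daam1 and Dab2 the groups did not overlap. They were the only such genes among the 211 called higher, picked out after their values were seen, and over all genes tested 10 were without overlap in this direction (0.0837%). Cttnbp2nl (1.03 ± 0.23), Cndp2, a dipeptidase gene (0.51 ± 0.12), and Aldh3a2, a fatty aldehyde dehydrogenase gene (0.43 ± 0.10), were called too (adjusted p of 0.00982, 0.012 and 0.00982). With libraries 6 and 7 left out, when these 3 and Msn had the smallest unadjusted p among higher genes with a mean over 50, their fold changes were 1.09, 0.56 and 0.48. Endothelial markers were high in part of the same libraries. The receptor gene Flt1 stood at 9828 to 10801 in AOB-F 1, 2 and 4 and at 6876 or less in the other 10 libraries, and Tek at 1974 to 3535 against 1525 or less. Msn was highest in AOB-F 6 and 7, where Flt1 was lowest (3993 and 3514). In Sham-F, library 3 was the highest for Flt1 (10491), Tek (3206) and Pecam1 (4793), and also for Msn, Dab2, Cttnbp2nl, Cndp2 and Aldh3a2. The part of endothelial cells in these results was not tested.

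Among 16 hypertrophic stress genes, 15 had a positive fold change and 3 were called, all higher in AOB-F. The study itself names Acta1, Ankrd23, Hs3st2, Penk, Tceal7 and Timp1 of this list as regulated in this series. The list is therefore not independent of these data. The median of the list was 0.54, and 0.55 without libraries 6 and 7, against 0.02 over all genes in each case. Ankrd23, an ankyrin repeat protein gene of the titin-based stretch sensor, ranged from 1089 to 7106 (median 5001) in AOB-F and from 850 to 2490 (median 1925) in PAB-F (1.44 ± 0.40, adjusted p = 0.0352, and 1.18 without libraries 6 and 7). Fhl1, a LIM protein gene of the same sensor, gave 1.09 ± 0.25 (adjusted p = 0.00982) and only 0.30 without them, since they stood at 18820 and 23050 and the rest of AOB-F at 7883 or less. Timp1, the gene of a metalloproteinase inhibitor, went from 2.06 ± 0.51 (adjusted p = 0.0154) to 0.47. Of 29 genes of TGF-beta and growth factors only the ligand gene Tgfb2 was called, which the study also names as regulated in this series. It ranged from 249 to 1905 (median 665) in AOB-F and from 201 to 370 (median 295) in PAB-F (1.51 ± 0.39, adjusted p = 0.0221, and 0.88 without libraries 6 and 7).

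The classical load markers did not pass the test between the loaded and the remote LV. Of 8 genes of natriuretic peptides, their receptors and their processing enzymes, 0 were called by edgeR, and 0 had an unadjusted p under 0.05. Nppa, encoding atrial natriuretic peptide, ranged from 4825 to 32330 (median 20530) in AOB-F and from 2777 to 20920 (median 8410) in PAB-F. The groups overlapped widely, with a fold change of 1.08 ± 0.56 (adjusted p = 0.346) and 1.22 without libraries 6 and 7. Part of this spread went with sex. Nppa lay at 20531 to 32334 in AOB-F males and at 8349 to 20925 in PAB-F males. In AOB-F females it lay at 4825 to 16028, against 2777 and 6350 in PAB-F females. Sham-F males lay at 6568 to 12454 and Sham-F females at 1919 to 3106. Within each sex AOB-F and PAB-F still overlapped. Nppb, encoding the B-type peptide used as a plasma marker of failure, lay at 6107 to 13950 (median 11280) against 7605 to 13300 (median 10680), a fold change of 0.02 ± 0.24 (adjusted p = 0.985). The skeletal actin gene Acta1 gave 0.31 ± 0.38, Penk, the gene of the opioid precursor proenkephalin, 0.20 ± 0.34, Tceal7 0.33 ± 0.45, Tgfa, an EGF receptor ligand gene, 0.83 ± 0.44, and Cilp, a matrix protein gene of fibroblasts, 0.90 ± 0.44 (adjusted p from 0.299 to 0.851). Cilp and Acta1 were low in libraries 6 and 7, at 72.9 and 50.9 for Cilp against a median of 299 over AOB-F. Acta1 stood there at 10302 and 9765. Both animals were female, and Acta1 stood at 13314 and 8843 in PAB-F females. It lay at 6376 to 9942 in Sham-F females and at 18891 to 22903 in Sham-F males. Cilp lay at 51 to 135 in Sham-F females and at 137 to 257 in Sham-F males. Without libraries 6 and 7 the fold changes were 1.28 for Cilp and 0.62 for Acta1, with most AOB-F females left out.

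Genes lower in the loaded LV were fewer and more evenly carried. Myo3b, which encodes a class III myosin with a kinase domain, ranged from 24.5 to 149 (median 67.8) in AOB-F and from 127 to 477 (median 197) in PAB-F. Its fold change was -1.63 ± 0.37 (adjusted p = 0.00992), and -1.31 without libraries 6 and 7. Ros1, a receptor tyrosine kinase gene, lay at 268 to 911 (median 357) against 635 to 1717 (median 990), at -1.11 ± 0.22 (adjusted p = 0.00386). Pfkfb1, an enzyme that sets the level of a glycolytic activator, lay at 27.9 to 93.4 (median 52.8) against 78.1 to 192 (median 143), at -1.16 ± 0.28 (adjusted p = 0.0139). Hpd, of tyrosine breakdown, ranged from 73.5 to 147 (median 120) in AOB-F and from 147 to 359 (median 273) in PAB-F (-1.14 ± 0.27, adjusted p = 0.0126). In all 4 genes the 2 groups touched or overlapped at the margin, while each AOB-F median lay below the lowest PAB-F library.

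Genes of membrane excitability and receptors were among those that fell. Of 20 ion channel genes tested, 2 fell and 0 rose. Kcnd3, the pore of the transient outward potassium current, lay at 303 to 768 (median 403) in AOB-F and at 594 to 1246 (median 800) in PAB-F (-0.81 ± 0.19, adjusted p = 0.0109, and -0.66 without libraries 6 and 7). Kcnq1, the pore of the slow delayed rectifier, lay at 1955 to 3639 (median 2613) against 2939 to 5245 (median 3754), at -0.46 ± 0.13 (adjusted p = 0.0405). The skeletal muscle chloride channel gene Clcn1 fell by 1.10 on the log2 scale, and Crhr2, the receptor gene for urocortins, by 0.92. The others named for size were Dcdc5, Ttll9, Atp4a, Hs3st5 and Ybx2, with fold changes between -1.28 and -0.92 and adjusted p between 0.0126 and 0.0473. Without libraries 6 and 7 these 7 genes lay between -1.08 and -0.68.

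The microRNA locus Mir1b also fell. Its reads come from rRNA-depleted long RNA and so from the precursor transcript around the hairpin, not from the mature miRNA. It ranged from 32.3 to 145 (median 65) in AOB-F and from 78.4 to 343 (median 183) in PAB-F, with a fold change of -1.50 ± 0.39 (adjusted p = 0.022) and -1.53 without libraries 6 and 7. The low-count locus Mir3546, which was among the 5 genes with the smallest p in the test of a stage difference, gave -2.57 ± 0.55 (adjusted p = 0.00585) on 0 to 14.4 (median 5.19) against 6.76 to 64.3 (median 30.4). Mature sequences from RefSeq (GRCr8) are given because the seed, bases 2 to 8 in capitals, decides which mRNAs a miRNA can pair with, and the 2 loci share no seed.
rno-miR-1b, from Mir1b, chr3:187864736-187864757, plus strand: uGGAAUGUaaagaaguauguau
rno-miR-3546, from Mir3546, chr15:32395601-32395622, plus strand: aUAACCCGggccaaaagcucac

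Of the 49 genes called lower, 6 showed no overlap between groups (12.2%), and 11 did over all genes tested (0.092%). They were picked out after their values were seen. Cdc25b, a cell cycle phosphatase gene, lay at 263 to 338 (median 334) in AOB-F and at 354 to 632 (median 518) in PAB-F (-0.67 ± 0.15, adjusted p = 0.00982). Map3k5, the gene of the stress kinase ASK1, lay at 1541 to 1790 (median 1626) against 1814 to 3966 (median 2070), at -0.57 ± 0.16 (adjusted p = 0.0354). Car14, a membrane carbonic anhydrase gene of cardiomyocytes, lay at 1135 to 2051 (median 1865) against 2076 to 2758 (median 2367), at -0.50 ± 0.13 (adjusted p = 0.0237). Scfd2 differed least in size, with -0.31 ± 0.09 (adjusted p = 0.0438). The sialyltransferase gene St6galnac5 stood at 0 to 4.12 against 4.22 to 10.5, and Actbl2, an actin gene that could share reads with other actins, at 8.47 to 22.6 against 25.4 to 53.5, both at counts too low for a firm fold change.

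**Figure D3:**
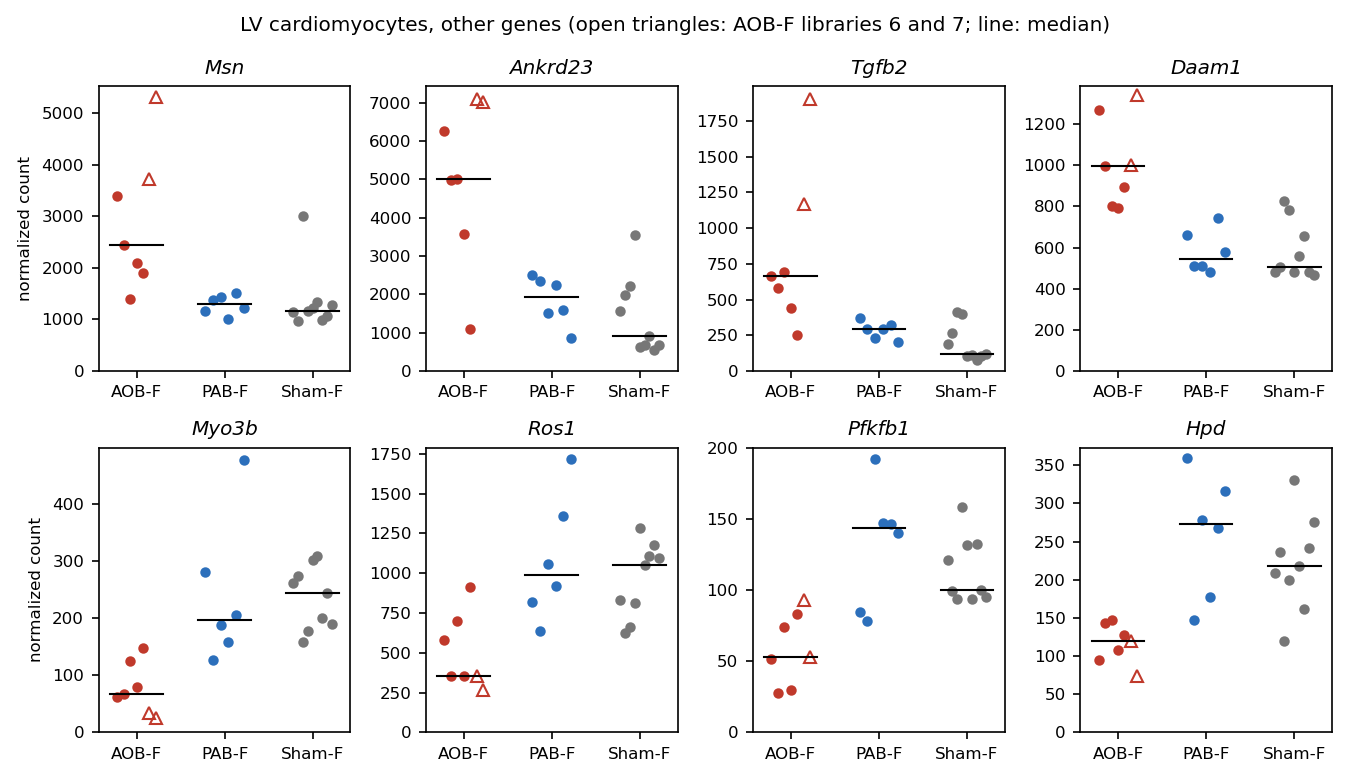
Normalized counts of 4 genes higher (Msn, Ankrd23, Tgfb2, Daam1) and 4 genes lower (Myo3b, Ros1, Pfkfb1, Hpd) in AOB-F than in PAB-F, in every LV library of AOB-F, PAB-F and Sham-F; each point is a library, open triangles are AOB-F 6 and 7, and the line is the group median. Daam1 separates AOB-F (790 to 1341) from PAB-F (480 to 743), and in the 4 lower genes the triangles lie within or at the low end of the AOB-F range, apart from Pfkfb1, in which 1 of them is the highest at 93.4.

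By gene list, the inflammatory lists had the highest medians among lists with more than 1 member tested. Of 30 chemokine and cytokine genes 3 rose (Ccl20, Ccl27 and Ccl7) and 0 fell. The median was 0.78, and 0.28 without libraries 6 and 7. Of 25 genes of myeloid leukocytes 4 rose (Sirpa, Myo1f, Itgam and Itgb2), with a median of 0.73, and 0.41 without these libraries. The study names Ccl20, Ccl27, Ccl7, Itgam and Itgb2 for aortic banding in this series. Neither the chemokine list nor the myeloid list is therefore independent of these data. Myo1f, a class I myosin gene of leukocytes, lay at 78.7 to 312 (median 122) in AOB-F and at 48.8 to 84.7 (median 63.6) in PAB-F, and its fold change of 1.17 ± 0.30 (adjusted p = 0.0202) became 0.73. Of 27 matrix enzymes and matricellular proteins 2 rose (Tnc and Spp1). This list, with 24 positive members and a median of 0.36, had a median of 0.41 without libraries 6 and 7. Of 11 collagen genes 0 were called by edgeR and 1 had an unadjusted p under 0.05 (median 0.19).

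Stress and metabolic lists gave few calls. Of 16 genes of the integrated stress response 2 rose, Asns and the amino acid transporter gene Slc7a5 (1.13 ± 0.27, adjusted p = 0.0135), and both were at -0.03 or lower without libraries 6 and 7. Hspb1 was the only call among 25 heat shock proteins and chaperones (0.86 ± 0.24, adjusted p = 0.0349). Nqo1 and Txnrd1, of the oxidant defence, rose by 0.55 ± 0.14 and 0.47 ± 0.14. Among 23 genes of glucose uptake and glycolysis, Pfkp (0.92 ± 0.22) and the basal glucose transporter gene Slc2a1 (0.65 ± 0.16) rose, with adjusted p of 0.012 and 0.0136. Angptl4, an inhibitor of lipoprotein lipase, was the single call among 30 genes of fatty acid oxidation and its regulators (1.90 ± 0.55, adjusted p = 0.0472). Each of these 6 genes lay between 0.16 and 0.33 without libraries 6 and 7. Of 41 genes of oxidative phosphorylation 0 were called by edgeR and 5 had an unadjusted p under 0.05, all lower in AOB-F (35 of 41 negative, median -0.16, and -0.06 without libraries 6 and 7). Of 50 cytosolic ribosomal proteins 45 were positive and 2 were called, Rpl4 (0.67 ± 0.14, adjusted p = 0.00515) and Rpl3 (1.04 ± 0.27, adjusted p = 0.0235). Without libraries 6 and 7 only 26 of the 50 were positive, and the median went from 0.15 to 0.01. Genes of this family have processed copies elsewhere in the genome that may take some of their reads.

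Contractile and calcium handling genes gave no calls. For 19 sarcomere proteins, 17 genes of calcium handling and 28 cardiac and chamber transcription factors, 0 were called by edgeR, with 1, 3 and 2 at an unadjusted p under 0.05 and medians of -0.07, -0.17 and -0.00. Of 15 circadian clock genes 0 were called by edgeR and 4 had an unadjusted p under 0.05, all lower in AOB-F (median -0.31, and -0.18 without libraries 6 and 7). The 25 immediate early genes (median -0.10), 28 interferon-stimulated genes (median 0.02, and 0.21 without libraries 6 and 7), 26 cell cycle genes (0.13) and 28 proteasome subunits (0.00) had 0 calls by edgeR and 2, 6, 6 and 3 genes at an unadjusted p under 0.05. The same held for 17 genes of adrenergic signaling (0.02) and 16 atrophy ligases and FOXO regulators (-0.08), with 3 and 4 genes at that unadjusted p. It also held for 8 genes of creatine kinase and the energy shuttle (-0.10) and 12 of the renin-angiotensin and endothelin systems (0.23), with 2 and 3. Medians moved by no more than 0.01 with DESeq2's size factors.

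**Figure D4:**
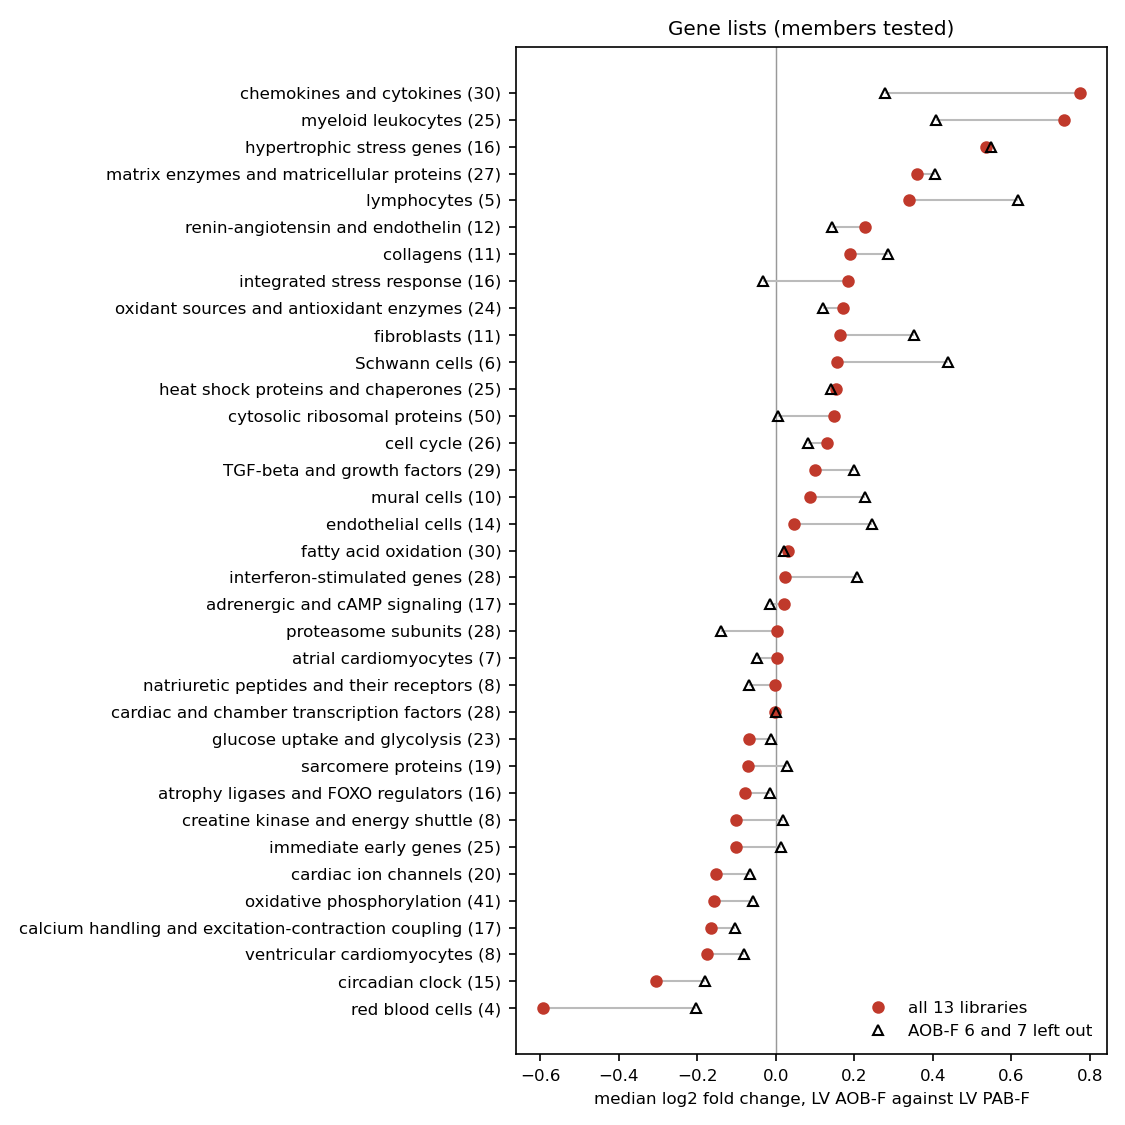
Median log2 fold change of AOB-F over PAB-F for each gene list with 4 or more members tested, whose number is in parentheses; filled circles use all 13 libraries and open triangles leave out AOB-F 6 and 7. Of the lists drawn, chemokines and myeloid genes shift most to the left without these libraries (0.78 to 0.28 and 0.73 to 0.41), while the hypertrophic stress genes stay in place (0.54 and 0.55). Several lists, among them the hypertrophic stress, chemokine, myeloid and growth factor lists, hold genes that the study named as regulated in this series.

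Markers of other cells were measured beside these results. The ventricular cardiomyocyte list took 6.97% to 9.45% of counts in 5 AOB-F libraries, 4.32% and 4.46% in libraries 6 and 7, and 7.39% to 10.4% in PAB-F, and all 8 of its genes had a fold change below 0, of which 0 were called by edgeR and 1 had an unadjusted p under 0.05. The myeloid list took 0.0773% to 0.131% in AOB-F and 0.0711% to 0.121% in PAB-F, and 13 of its 25 genes were higher in both library 6 and library 7 than in any of the other 11. Lyz2, the macrophage lysozyme gene, stood at 3037 and 3909 there and at 666 or less elsewhere, whereas the pan-leukocyte marker Ptprc stood at 62.2 and 120 against up to 82 in the other AOB-F libraries. Cd74 and Ncf1, the list members with the highest PAB-F medians, went the other way. In libraries 6 and 7 Cd74 stood at 2082 and 1709, against 4551 or more in PAB-F. Ncf1 stood at 1532 and 1591, against 2385 or more. The summed share of the myeloid list therefore mixes opposite moves. Of 11 neutrophil genes only Lcn2 was high enough to be tested. The defining granulocyte genes S100a8 and S100a9 were at 14.1 to 19.8 in libraries 6 and 7 and at 5.19 or less elsewhere, and Mpo at 0.942 or less. Csf3r, the receptor gene for granulocyte growth factor, stood at 43.4 and 62.2 against at most 8.92. The part of these cells in the results was not tested.

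Fibroblast genes (11 tested, median 0.16), endothelial genes (14, median 0.05) and mural genes (10, median 0.09) had 0 calls by edgeR and 1, 3 and 1 genes at an unadjusted p under 0.05. Without libraries 6 and 7 the medians were 0.35, 0.24 and 0.23, with 11 of 11, 12 of 14 and 9 of 10 members positive, and 0, 5 and 2 genes were higher at an unadjusted p under 0.05. Flt1 went from 0.46 to 0.70 and Tek from 0.73 to 0.97. Fibroblast genes took 0.12% to 0.489% of counts in AOB-F and 0.101% to 0.459% in PAB-F, and endothelial genes 0.364% to 0.798% and 0.305% to 0.823%. Atrial genes, at 0.142% to 0.237% against 0.129% to 0.245%, and lymphocyte genes, at up to 0.00348% against 0.00253%, had 0 calls by edgeR and 0 and 1 genes at an unadjusted p under 0.05. In the Schwann cell list only the adhesion molecule gene Ncam1 was called (1.75 ± 0.50, adjusted p = 0.0443). It stood at 3889 and 4418 in libraries 6 and 7 and at 792 or less in the other AOB-F libraries. Erythrocyte genes took at most 0.00985% in AOB-F and 0.0125% in PAB-F, with 0 of 4 called by edgeR and 1 at an unadjusted p under 0.05.

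Set against Sham-F, the loaded and the remote LV differed in how many genes moved. These comparisons share the sham libraries, so only their own values are given. Sham-F held 4 males and 5 females, AOB-F 4 and 3, and PAB-F 4 and 2, and these fits had no sex term. AOB-F against Sham-F gave 1541 calls, and 344 without libraries 6 and 7. For PAB-F against Sham-F edgeR called 0 genes and 454 had an unadjusted p under 0.05. Nppa was higher than in sham by 1.95 ± 0.51 in AOB-F (adjusted p = 0.00661) and stood at 0.87 ± 0.52 in PAB-F, not past the test. Nppb stood at 0.48 ± 0.22 and 0.46 ± 0.22 against sham, neither past the test, and Acta1 at 0.76 ± 0.34 and 0.45 ± 0.36. Ankrd23 gave 1.82 ± 0.35 (adjusted p = 4.48e-04) in AOB-F and 0.38 ± 0.36 in PAB-F, and Tgfb2 2.04 ± 0.35 (adjusted p = 7.06e-05) and 0.53 ± 0.36. Without libraries 6 and 7 the AOB-F value of Ankrd23 was 1.565. In Sham-F, Ankrd23 lay at 1574 to 3534 in males and at 552 to 911 in females. Tgfb2 lay there at 190 to 413 in males and at 75.5 to 120 in females. The part of sex in these values was not tested. Myo3b stood at -1.61 ± 0.35 against sham in AOB-F (adjusted p = 0.00158) and at 0.02 ± 0.34 in PAB-F, and Ros1 at -0.94 ± 0.20 (adjusted p = 0.00161) and 0.18 ± 0.21. Mir1b and Hpd were lower than in sham in AOB-F (-1.35 ± 0.36 and -0.93 ± 0.25) and at 0.14 ± 0.36 and 0.22 ± 0.25 in PAB-F. Ccl27 was the exception among the leading higher genes, with 1.64 in AOB-F and -1.01 in PAB-F against sham, where it ranged up to 35.4. Without libraries 6 and 7 the AOB-F value of Ccl27 against sham was -0.43.

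**Figure D5:**
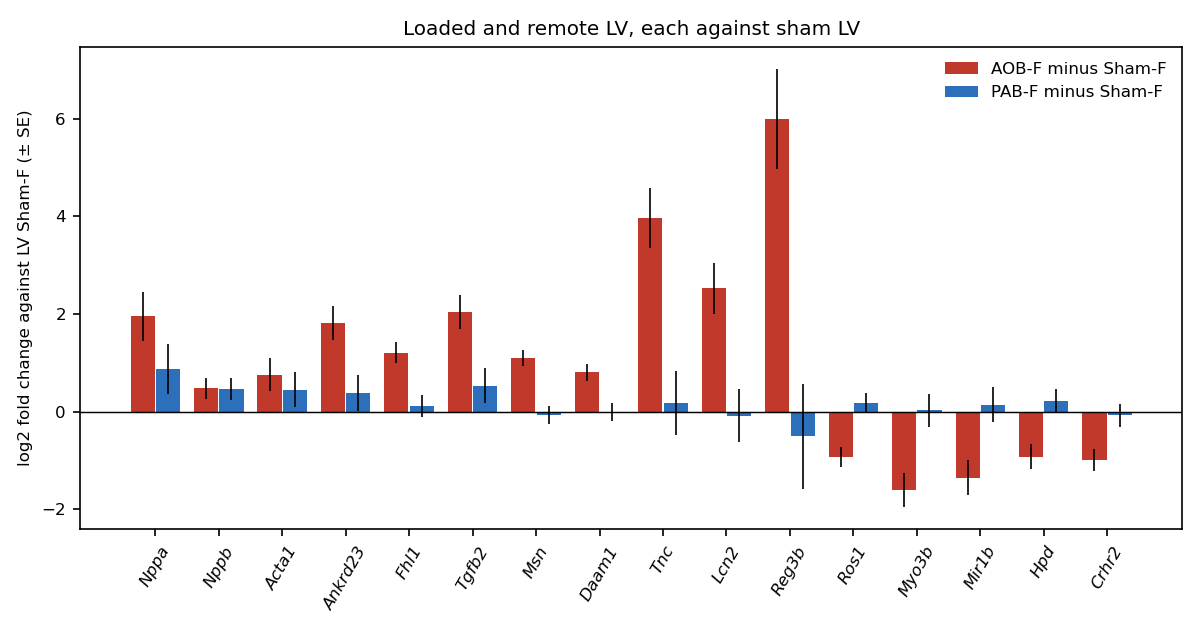
Log2 fold change (bars, ± SE) of LV AOB-F and of LV PAB-F, each against the same 9 LV Sham-F libraries, for 16 of the genes named. Reg3b reaches 6.00 in AOB-F and -0.51 in PAB-F, Nppb is nearly equal in both (0.48 and 0.46), and Myo3b lies at -1.61 and 0.02.

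In the compensated stage, where both groups had the same labelled age and time after surgery, the same contrast in other animals gave 0 calls by edgeR, with 485 genes at an unadjusted p under 0.05, and 0 by DESeq2, with 568. AOB-H held 2 males and 4 females and PAB-H 4 males and 2 females, so banding and sex were partly mixed at this stage. Of the 211 genes called higher at failure, 58.8% had a positive fold change there (55.1% of all genes), with a median of 0.03 and 0 at an unadjusted p under 0.05. Of the 49 called lower, 26 had the same sign, and 1 had an unadjusted p under 0.05. Ankrd23 gave 0.05 ± 0.41 at this stage, Msn 0.24 ± 0.19, Nppa 0.21 ± 0.57, Myo3b 0.03 ± 0.38 and Ros1 0.25 ± 0.23. The difference between stages was itself tested, and 0 genes passed by edgeR (989 at an unadjusted p under 0.05, smallest adjusted p 0.24) and 2 by DESeq2.

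The labelled ages of the failing groups differ, so the change with age in sham LV, from libraries that the main contrast does not use, is given beside it. Sham-H was labelled 11 weeks and Sham-F 31 weeks, a far wider span than the 28 and 31 weeks of the failing groups. Between Sham-H and Sham-F, 27.8% of genes rose and 29.6% fell. Of the 211 genes higher in AOB-F, 8 rose with age in sham, 75 fell and 128 did neither. Of the 49 lower genes, 12 rose, 6 fell and 31 did neither. Pfkfb1, lower in AOB-F, rose with age by 1.75 ± 0.27 (adjusted p = 7.24e-07), and Ros1 fell by 0.63 on the log2 scale (adjusted p = 0.00505). With age Ankrd23 rose by 1.27 ± 0.37 (adjusted p = 0.00226) and Nppa by 1.52 ± 0.52 (adjusted p = 0.0106).

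The contrast was then compared with that of the RV in the same animals, as the LV difference minus the RV difference of AOB-F and PAB-F. In the RV the roles are exchanged, since PAB loads it and AOB leaves it remote. Of 11954 genes 268 differed (2.24%), 201 of them with the more positive difference in the LV, and 134 without animals 6 and 7. This fit took the LV and RV libraries of an animal as independent. With the animal as a block, 434 genes differed, and the adjusted p below are from the fit without the block. Nppa stood at 1.08 ± 0.56 in the LV and at -3.35 ± 0.59 in the RV (adjusted p of the difference 9.38e-04). Nppb stood at 0.02 ± 0.24 and -1.56 ± 0.24 (adjusted p = 0.00516). Ankrd23 was higher in whichever chamber was loaded, at 1.44 ± 0.40 and -1.62 ± 0.39, and so was Tgfb2, at 1.51 ± 0.39 and -1.49 ± 0.38 (adjusted p of both differences 9.38e-04). Hs3st2, a heparan sulfate sulfotransferase gene, at 1.65 ± 0.62 and -4.09 ± 0.70, had the smallest adjusted p (5.20e-04), followed by Fstl3, an activin antagonist gene, at 0.77 ± 0.23 and -1.15 ± 0.23. Tgfa and the hyaluronidase gene Hyal1 were at 0.83 ± 0.44 and 0.40 ± 0.22 in the LV and at -2.68 ± 0.46 and -1.34 ± 0.22 in the RV. Tnc (3.78 and -0.43), Msn (1.17 and 0.09), Ros1 (-1.11 and 0.24) and Myo3b (-1.63 and 0.42) differed too (adjusted p from 0.00811 to 0.0222), each with an RV value that was not past the test. Msn no longer passed when animals 6 and 7 were left out (adjusted p = 0.0512).

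Between the sexes the contrast differed in 118 of 12421 genes (0.95%), 17 more positive in males and 101 more positive in females. This test rests on 3 AOB-F and 2 PAB-F females, and 2 of the 3 are animals 6 and 7. Plin2 gave 2.39 ± 0.41 in females and 0.16 ± 0.16 in males (adjusted p of the difference 0.00717), and Reg3b 8.27 ± 1.54 and -0.22 ± 0.86 (adjusted p = 0.00935). Eef1e1, a cofactor gene of the tRNA synthetase complex, Cdh16, a cadherin gene, and Pde11a, a phosphodiesterase gene, had the same adjusted p. Sex and the 2 animals that stand apart cannot be told apart here. In males alone edgeR called 2 genes, both lower in AOB-F, namely the lipid receptor gene Gpr18 and LOC365778, with 1601 at an unadjusted p under 0.05.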

How the data were processed

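Per the labels and the study's methods, cardiomyocyte RNA was depleted of rRNA and sequenced as paired ends, and the authors trimmed reads with Trim Galore, aligned them with STAR to Rnor6.0 and made raw counts per gene with featureCounts, leaving out reads that overlap several genes. The deposited table also held FPKM values, computed by the authors from these counts and used here for no test, and the authors' normalized reads, which were not used. The authors' notes name DESeq2 1.28.1.

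From the counts of 82 libraries, each from 1 chamber of 1 animal, 12 group means were fitted with edgeR 4.0.16 in R 4.3.3 (TMM, filterByExpr, quasi-likelihood test, Benjamini-Hochberg adjustment over 11954 of 17337 genes, adjusted p under 0.05). DESeq2 1.42.0, other filters and other sets of libraries were alternatives, and the script was tested on simulated data. Totals in the LV libraries of AOB-F and PAB-F were 10121379 to 18282203 counts, a depth that limits genes of few counts.

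The groups, gene lists and rules were chosen with earlier results of these data known. Genes were named as the 12 with the largest fold change in each direction (called, mean over 50), up to 4 per list, those the study's text names, and up to 5 per difference between chambers, stages or sexes. Genes without overlap, genes with the smallest p without AOB-F 6 and 7, and the calls in males were added after their values were seen. LV and RV libraries of 1 animal were paired only in the animal block, and the main fit took them as independent. Promoter and miRNA sequences were read from RefSeq (GRCr8).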

Additional observations from a re-analysis of the deposited data

Results flagged for a closer look

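In 27 of 198 gene and group combinations (13.6%), 1 library stood far from the others of its group. The distance was that from the nearest library as a share of the group's range (Dixon's criterion).

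Within AOB-F, library 7 stood apart for Spp1 (5034, next 883), Gpnmb (4669, next 1643) and Myo1f (312, next 172), and library 5 for Dcdc5 (244, next 76.3). In PAB-F, library 5 was high for Plin2 (1133), Fhl1 (7003) and Txnrd1 (1507) and library 2 for Angptl4 (307), while Hs3st5 was low in library 2 (107) and Tceal7 in library 6 (13.04).

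Among the sham animals, library 4 of Sham-F was high for Reg3b (323, next 37.6), Hk3 (28.9), Tnc (60.5), Spp1 (248), Fhl1 (6728), Timp1 (152), Tceal7 (95.9) and Ncam1 (446). Library 3 of Sham-F was high for Msn (2995), Dab2 (741), Cttnbp2nl (929), Cndp2 (992), Aldh3a2 (711) and Rpl4 (4581). Hs3st5 was high in library 5 (308), Penk in library 8 (3691) and Slc2a1 in library 2 (955) of the same group.

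The difference between AOB-F and PAB-F was not the same in both ventricles for 268 genes, by the test of that difference. The LV value minus the RV value was 5.74 for Hs3st2, 1.91 for Fstl3, 1.74 for Hyal1, 3.51 for Tgfa and 3.0 for Tgfb2 on the log2 scale. It was not the same in both sexes for 118 genes, and the male value minus the female value was -2.22 for Plin2, -1.61 for Eef1e1, -8.49 for Reg3b, -3.59 for Cdh16 and -4.66 for Pde11a. Animals 6 and 7 make up 2 of the 3 AOB-F females.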

How the results depend on the processing

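The 260 calls became 252 with DESeq2's size factors, 178 with no filter on low counts, 327 with DESeq2 and 263 with sex as a covariate. They became 10 in a fit to the 41 LV libraries, 0 in a fit to the 13 libraries (891 at an unadjusted p under 0.05), 2 in males, 328 in females and 11 to 601 when 1 library was left out. With AOB-F 6 and 7 left out, an alternative chosen after seeing the data, edgeR called 0 (1470 at an unadjusted p under 0.05) and DESeq2 59. The 105 genes under the criteria adapted from the study became 49 in the 13 libraries, 61 in males, 301 in females, 39 without AOB-F 6 and 7, 67 with the adjusted p among the criteria, 172 with a mean over 10, and 43 to 165 with 1 library left out. The stage difference gave 2 genes with DESeq2, and the chamber difference 172 with no filter and 134 without animals 6 and 7. Fewer samples and, in females, 2 PAB-F animals enter some of these fits, and the cause was not tested otherwise.

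With the replicate number as a block in the 13 libraries, edgeR called 0 genes (1188 at an unadjusted p under 0.05) and 25 met the adapted criteria. Deviations of AOB-F and PAB-F libraries with the same number correlated at -0.13 to 0.60 (median 0.16, against -0.04 for other numbers), 5 of 6 pairs at over 0.1, and 2 of 6 PAB-F libraries correlated best with their own number. Since 1 pair was under 0.1 and no label ties the numbers to a shared animal, litter or day, they were not taken as a pairing. With the animal as a block the chamber difference gave 434 genes.

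The other settings were followed for 66 of the genes named with values. Of these 66, 59 were called, and 53 of the called genes kept their sign in every other setting tried. Other genes given with values, such as Flt1 and Tek, which were not called, were not among the 66. In males the fold change turned to -0.22 for Reg3b, -0.20 for Ccl20, -0.11 for Ccl7, -0.18 for Asns, -0.0108 for Slc7a5 and -0.59 for Angptl4. Without AOB-F 6 and 7 it was -0.0931 for Reg3b, -0.0773 for Asns, -0.0338 for Slc7a5 and -0.10 for Nppb. Nppb was near 0 throughout, at -0.0053 with no filter, -0.016 in 13 libraries, -0.0044 in 41, -0.0945 with the block, -0.0811 in males and -0.0615 to 0.12 with 1 library left out. In females Cilp was at -0.14 and Tceal7 at -0.0511, and Tceal7 ranged from -0.0304 to 0.47 with 1 library left out. Depth limits genes of few counts, such as St6galnac5 and Ccl20.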

Other observations

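Among the genes whose AOB-F and PAB-F libraries did not overlap, 13 did not pass the adjusted test, and they are named here after their values were seen. Higher in every AOB-F library were Cd274, the gene of the immune checkpoint ligand PD-L1 (log2 fold change 0.74, adjusted p = 0.096), Ripk1, a kinase gene of cell death signaling (0.48, adjusted p = 0.101), and Chsy1, a chondroitin synthase gene (0.38, adjusted p = 0.0514). Lower in every AOB-F library were the clock gene Per1 (-0.73, adjusted p = 0.0711), the arrestin domain gene Arrdc2 (-0.67, adjusted p = 0.111) and Mctp2 (-0.77, adjusted p = 0.072).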
